A study of Mus musculus with 3 samples.

Results

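Ucma-high immature chondrocytes were picked from day 7 fracture callus of mice as cells in which the cartilage collagen Col2a1 and the small secreted cartilage protein Ucma were both high and the hypertrophic collagen Col10a1 was low. A cell was a member when at least 500 genes were detected and at most 10% of its UMIs (unique molecular identifiers, 1 per captured transcript) were mitochondrial. In addition Col2a1 had to make up at least 1% of its UMIs and exceed Col1a1, Col10a1 had to stay under 0.05%, Ucma had to reach 0.1%, and the tendon genes Tnmd, Thbs4 and Sfrp5 together had to stay under 5 UMIs. This gave 659 members among 5463 cells that passed the filters and among 2630 Col2a1 chondrocytes, the cells that met the Col2a1 and Col1a1 conditions. There were 151 members in the PTH library, 14 in the YKL library and 494 in the control library.

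The mice were female C3H/HeJ, a strain the submitters call slow to heal, 9 weeks old, with a pinned midshaft fracture of 1 femur. PTH mice were injected under the skin every day with an amino-terminal fragment of parathyroid hormone at 100 µg/kg, YKL mice with YKL-05-099 at 15 mg/kg, and control mice with the PBS vehicle. YKL-05-099 is a small-molecule inhibitor of salt-inducible kinases, enzymes that PTH receptor signalling through cAMP shuts off and that keep CRTC and class IIa histone deacetylases in the cytoplasm. Callus was dissected away from marrow, digested with collagenase and run as 1 droplet library per group (3′ kit), and how many mice went into a library is not stated in the labels.

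In endochondral repair the callus first forms cartilage, whose chondrocytes divide and lay down a matrix of type II collagen and aggrecan, then enlarge, switch on Col10a1 and mineralize before bone replaces them. Ucma encodes a Gla-rich secreted protein of early cartilage, and its mRNA marks chondrocytes of the distal resting zone and early stages in growing cartilage. Cartilage has no vessels, and its cells make much of their energy by glycolysis under low oxygen through the factor HIF1A.

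The regulatory DNA ahead of 3 of the marker genes is shown because these genes were read out together in the members. Each sequence holds the 250 bases before the annotated gene start, 5′ to 3′ on the strand of the gene, from RefSeq on GRCm38.p6, the same assembly as the mm10 build of the files. Capitals mark CCAAT on either strand. Ucma lies at chr2:4975872-4976121 (plus strand), Matn3 at chr12:8947679-8947928 (plus strand) and Cnmd at chr14:79662184-79662433 (minus strand).
Ucma: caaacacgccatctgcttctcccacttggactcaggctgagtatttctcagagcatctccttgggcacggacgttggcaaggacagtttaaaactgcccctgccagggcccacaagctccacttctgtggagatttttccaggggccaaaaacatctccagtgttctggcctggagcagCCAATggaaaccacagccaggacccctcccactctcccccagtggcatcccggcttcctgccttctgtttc
Matn3: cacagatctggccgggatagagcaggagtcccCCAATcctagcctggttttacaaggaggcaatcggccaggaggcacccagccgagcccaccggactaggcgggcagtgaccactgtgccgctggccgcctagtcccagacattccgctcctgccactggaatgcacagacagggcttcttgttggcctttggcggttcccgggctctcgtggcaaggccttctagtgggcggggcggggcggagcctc
Cnmd: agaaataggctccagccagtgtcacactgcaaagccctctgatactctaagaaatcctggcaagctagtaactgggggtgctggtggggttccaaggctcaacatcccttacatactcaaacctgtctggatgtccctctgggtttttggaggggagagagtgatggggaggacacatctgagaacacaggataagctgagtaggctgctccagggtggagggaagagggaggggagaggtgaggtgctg
CCAAT occurred 1 time in the Ucma window, 1 time in the Matn3 window and 0 times in the Cnmd window, and 33.9% of all 32851 windows of this length held it. The SOX core ACAAT, searched on both strands, occurred in none of the 3 windows and in 27.7% of all windows, and TATAAA occurred in none of the 3 and in 12.4% of all windows. These are matches of letters, not binding sites.

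The members carried the 5 genes given for this cell state. Ucma itself, used by the rule, stood at 3525 CPM (UMIs of the gene per 1000000 summed UMIs) in PTH members, 1607 CPM in YKL members and 3390 CPM in control members. Endothelial cells of the same libraries were filtered cells, not Col2a1 chondrocytes, that held UMIs of any pair of Pecam1, Cdh5 and Emcn. In these cells Ucma stood at 3.59 CPM in the PTH library, 0 CPM in the YKL library and 66.5 CPM in the control library. Cnmd, which encodes chondromodulin, an inhibitor of vessel growth, was at 2273 CPM in PTH, 2706 CPM in YKL and 2273 CPM in control members. Matn3, a matrilin of the cartilage matrix, was at 3164 CPM in PTH, 3237 CPM in YKL and 3140 CPM in control members. For both genes the 3 libraries lay close together, and endothelial cells reached at most 39.0 CPM.
Comp, a pentameric matrix glycoprotein, was at 10841 CPM in PTH, 13301 CPM in YKL and 7543 CPM in control members, and Mia, a small secreted cartilage protein, at 1028 CPM in PTH, 2188 CPM in YKL and 1544 CPM in control members. All 5 markers were thus present in the members of all 3 libraries, while Comp was also plentiful in cells outside the rule, with 8062 CPM in PTH, 9440 CPM in YKL and 7103 CPM in control Ucma-low cells.

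The edge of the rule cuts a continuous range of Ucma. Just inside it, 42 PTH, 11 YKL and 160 control members had Ucma between 0.1% and 0.2% of their UMIs. Just outside it, 39 PTH, 16 YKL and 97 control cells that met every other condition had Ucma between 0.05% and 0.1%. The tendon condition alone removed 88 PTH, 0 YKL and 113 control cells, and the Col10a1 condition alone removed 4 PTH, 9 YKL and 56 control cells. The median member held Ucma at 0.301% of its UMIs in the PTH library, 0.154% in the YKL library and 0.280% in the control library, so that the YKL members sat near the threshold.

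**Figure D1:**
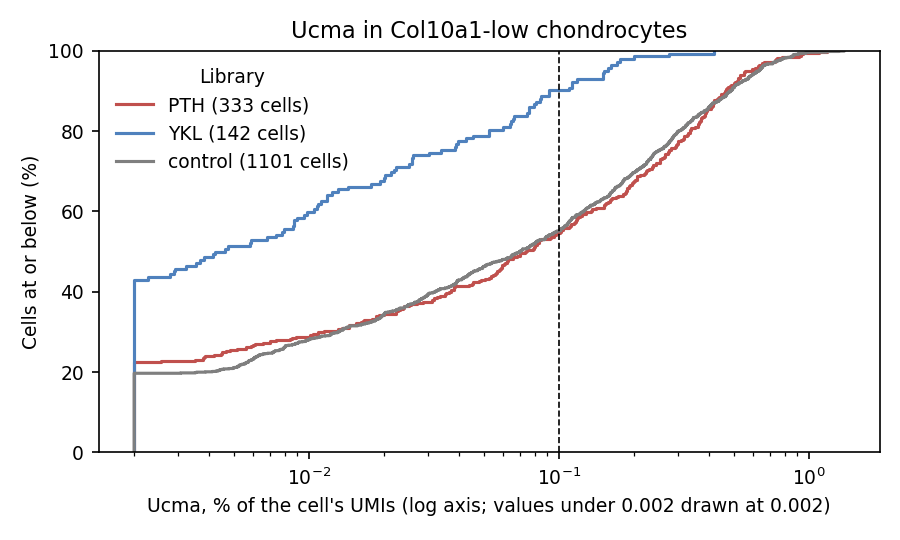
Share of Col10a1-low chondrocytes without tendon genes (y, %) whose Ucma is at or below the level on the x axis (% of the cell's UMIs, log scale), 1 line per library; the dashed line is the 0.1% threshold of the rule. The PTH and control lines run together, and the YKL line lies above both because most of its 142 cells hold little or no Ucma.

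The libraries held 33981167 UMIs (PTH), 19424073 UMIs (YKL) and 55250651 UMIs (control), and the members' sums were 2845545, 550178 and 9156088 UMIs in the same order. A YKL member was deeper than the others, with a median of 41600 UMIs against 17181 in PTH and 18306 in control members. No member barcode was shared between libraries, and Scrublet, a doublet caller, marked 0 PTH, 1 YKL and 13 control members, which stay in the main values. RNA of other cells differed between the libraries. The 5 red cell genes summed to 2717 CPM in PTH members (88.1% of it in 1 cell), 196 CPM in YKL members and 13288 CPM in control members, and the 8 neutrophil genes to 11.2 CPM, 36.4 CPM and 811 CPM. The 8 macrophage genes summed to 9.49 CPM in PTH, 1.82 CPM in YKL and 169 CPM in control members, with 3, 7 and 0 of these genes at 0 UMIs. Endothelial genes summed to 9.84 CPM in PTH, 185 CPM in YKL and 32.5 CPM in control members, and 1 of the 14 YKL members held 96 of the 102 endothelial UMIs. The part of this foreign RNA in the differences below was not tested. Each group is 1 library, so there is no test between groups and no replicate check, and all 95% intervals cover counting error only.

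Members were much rarer in the YKL library. They made up 22.5% of Col2a1 chondrocytes in the PTH library (exact Clopper-Pearson interval 19.4% to 25.8%, 151 of 672), 3.66% in the YKL library (2.02% to 6.07%, 14 of 382) and 31.3% in the control library (29.1% to 33.7%, 494 of 1576). The PTH share depends on the tendon condition, since 106 of 151 PTH, 3 of 14 YKL and 199 of 494 control members held at least 1 tendon-gene UMI. With no such UMI allowed the shares were 6.70% in the PTH library, 2.88% in the YKL library and 18.7% in the control library. Of all filtered cells they were 7.89% in the PTH library, 2.31% in the YKL library and 16.8% in the control library. The other classes were distributed differently: Col10a1-positive chondrocytes, the later stage, made up 27.7% of Col2a1 chondrocytes in the PTH library, 60.7% in the YKL library and 22.3% in the control library. Cells with tendon genes made up 22.8% in the PTH library, 2.09% in the YKL library and 7.87% in the control library.

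**Figure D2:**
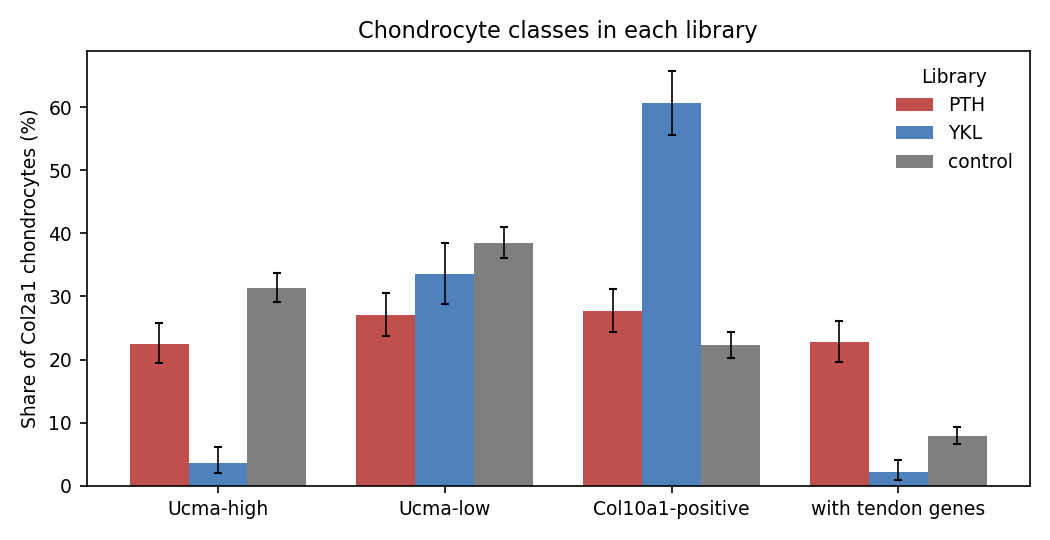
Share of each chondrocyte class among the Col2a1 chondrocytes of a library (y, %), bars in the order PTH, YKL, control, with exact 95% Clopper-Pearson intervals. The Ucma-high bar is 22.5% in the PTH library, 3.66% in the YKL library and 31.3% in the control library, while the Col10a1-positive bar is highest in the YKL library, at 60.7%.

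The denominator was also taken without the later and tendon classes. Among Col10a1-low chondrocytes without tendon genes, members were 45.3% in the PTH library (39.9% to 50.9%, 151 of 333), 9.86% in the YKL library (5.50% to 16.0%, 14 of 142) and 44.9% in the control library (41.9% to 47.9%, 494 of 1101). The PTH and control shares overlapped within counting error in this set, and the YKL interval lay below both. At a lower Ucma threshold of 0.02% the shares were 65.8%, 32.4% and 65.7% for PTH, YKL and control, and the median Ucma level over these cells was 0.0736%, 0.00443% and 0.0697% of UMIs. YKL members were also the deeper ones, and the part of depth in these shares was not tested.

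Within each library the members were set against Ucma-low chondrocytes, which met the same conditions except that Ucma was under 0.1%. The 2 classes were split by their own counts, so the ratios describe the split and carry no test. Of 6463 genes with at least 50 UMIs over both sums in every library, 64 genes (0.99%) were at least 1.5-fold higher in the members in all 3 libraries and 182 genes (2.82%) at least 1.5-fold lower. With the PTH and control libraries alone, which have more members, 203 of 7365 genes were higher (2.76%) and 253 lower (3.44%).

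Matn1, Epyc and Mest were among the 10 genes named on the higher side. Matn1, a matrilin of the cartilage matrix, was at 62.9 CPM in PTH, 41.8 CPM in YKL and 77.5 CPM in control members. Ucma-low cells of the same libraries held 16.7, 15.1 and 6.23 CPM. Epyc, the small leucine-rich proteoglycan epiphycan, was at 221, 218 and 319 CPM in PTH, YKL and control members, against 81.8, 115 and 99.9 CPM in Ucma-low cells. Mest, an imprinted gene expressed from the paternal allele, was at 435, 347 and 253 CPM in members, against 98.5, 176 and 88.5 CPM in Ucma-low cells. In each of these genes every library had its members above its Ucma-low cells, as the call itself required.
Mia (log2 ratios of 1.01 in PTH, 1.85 in YKL and 1.58 in control cells) and Cnmd (1.08, 0.91 and 0.76) were past 1.5-fold in all 3 libraries, whereas Matn3 (1.12, 0.90 and 0.53) was not in the control library and Comp (0.43, 0.49 and 0.09) in none. Phyh, which starts the peroxisomal breakdown of branched fatty acids, had log2 ratios of 2.04, 0.92 and 1.82. R3hdml, a secreted protein of the CAP family, had 1.91, 2.25 and 2.48, but 68.1% of its YKL UMIs came from 1 cell. Lmcd1, a LIM domain protein, Nrtn, the neurotrophic factor neurturin, Map7d3, a microtubule-binding protein, and Arsi, an arylsulfatase, completed the 10 genes. The 10 were ranked by their smallest ratio over the 3 libraries.

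Adm, Ero1l and Cdkn1a were among the 10 genes named on the lower side. Adm, the vasodilator adrenomedullin, was at 16.2 CPM in PTH, 1.82 CPM in YKL and 24.2 CPM in control members, against 183, 114 and 118 CPM in Ucma-low cells. Ero1l, an oxidase of the endoplasmic reticulum that low oxygen induces, was at 69.6, 61.8 and 129 CPM in members, against 383, 342 and 384 CPM in Ucma-low cells. Cdkn1a, the cell cycle inhibitor p21, was at 265, 185 and 217 CPM in members, against 781, 691 and 685 CPM in Ucma-low cells. The members lay below the Ucma-low cells in each library for all of these, which the call required.
Apln, the vessel peptide apelin, Ndrg1, a hypoxia-responsive gene, Igfbp6, an IGF-binding protein, Selenbp1, a selenium-binding protein, Klk8, a serine protease, Espn, an actin-bundling protein, and Aldh1a3, a retinoic acid-making enzyme, were also among the 10 lowest. Espn had 0 UMIs in the YKL members, and Adm, Selenbp1 and Aldh1a3 had 1 UMI each there.

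**Figure D3:**
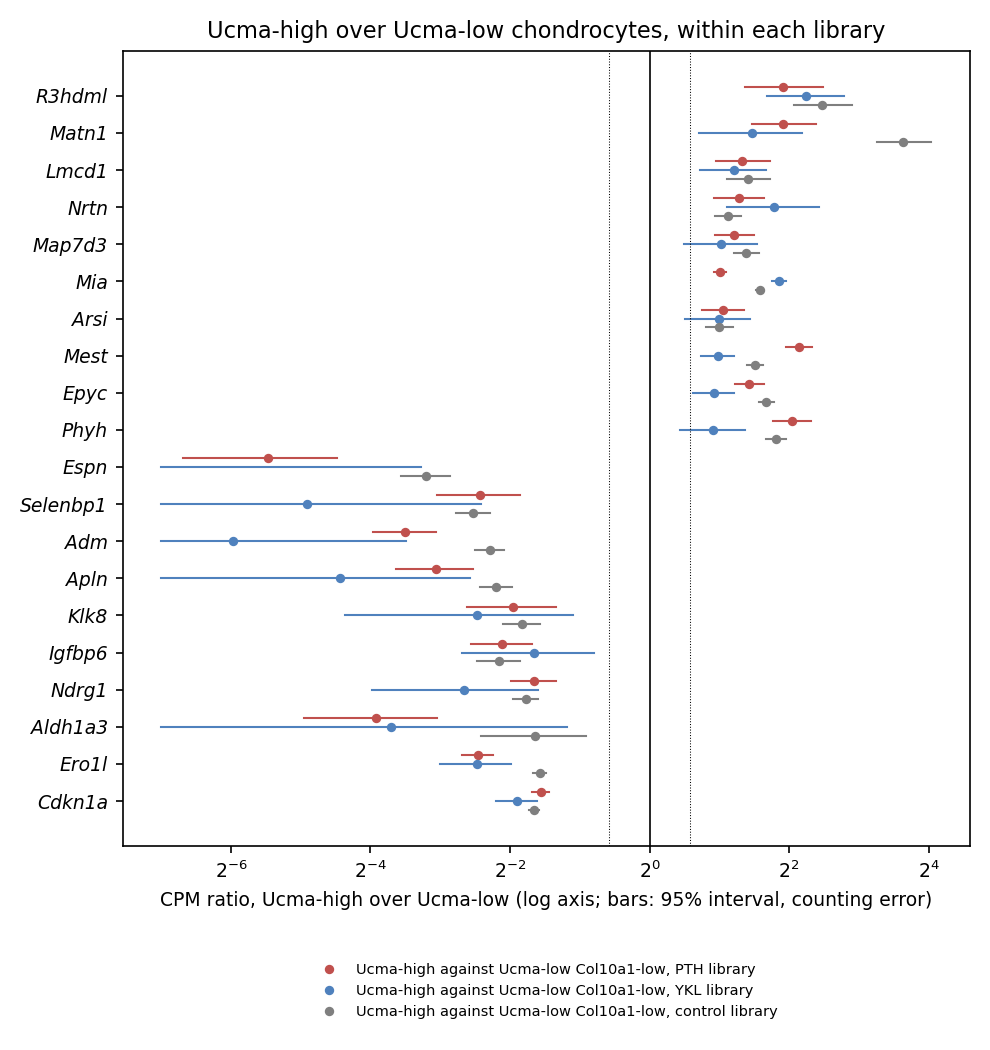
CPM ratio of Ucma-high over Ucma-low chondrocytes within the PTH, YKL and control libraries (x, log scale) for the 10 genes higher and the 10 lower by the naming rule; points are ratios, bars 95% counting intervals drawn down to 1/128, and dotted lines mark 1.5-fold. No point is drawn for Espn in the YKL library, where members had 0 UMIs.

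Genes of hypoxia and glycolysis were lower in the members. Of 19 measured members 0 were higher and 7 lower in all 3 libraries (Bnip3, Car9, Gapdh, Egln3, Ndrg1, P4ha2 and Ankrd37), and the median log2 ratio was -0.67 in PTH, -0.998 in YKL and -0.44 in control cells, against medians over all genes of 0.04, -0.07 and 0.04. Gapdh, a glycolytic dehydrogenase, was at 2365 CPM in PTH, 1550 CPM in YKL and 3902 CPM in control members, against 5957, 5508 and 7296 CPM in Ucma-low cells. The summed list stood at 8131 CPM in PTH, 6807 CPM in YKL and 13323 CPM in control members, against 15723, 15521 and 20001 CPM in Ucma-low cells. Metallothioneins and oxidative stress genes had 4 of 10 lower and 0 higher, with Mt1, a metal-binding protein, at 1523, 353 and 1663 CPM in members, against 2886, 2175 and 2839 CPM in Ucma-low cells. The 13 mitochondrially encoded genes had 4 higher and 0 lower, and the median mitochondrial share of a cell was 3.49% in PTH, 4.06% in YKL and 3.04% in control members, against 1.60%, 1.27% and 1.57% in Ucma-low cells.

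Non-collagen matrix genes leaned higher in the members, while no cartilage collagen was called. Of 18 measured non-collagen matrix genes 5 were higher (Matn1, Cnmd, Mia, Mgp and Fbln7) and 2 lower (Vit and Vwa1), against 0.99% and 2.82% of all genes. Their median log2 ratio was 0.41 in PTH, 0.49 in YKL and 0.56 in control cells. Of 10 small leucine-rich proteoglycans 2 were higher (Epyc and Chad) and 0 lower. Mgp, matrix Gla protein, an inhibitor of calcification, was at 8245 CPM in PTH, 7688 CPM in YKL and 5303 CPM in control members, against 4604, 4874 and 2388 CPM in Ucma-low cells. Of 11 cartilage collagens and partners 0 were called in either direction: Col11a1, a fibril partner of type II collagen, was at 9880, 10346 and 8715 CPM in PTH, YKL and control members, against 7704, 7946 and 6979 CPM in Ucma-low cells. Sox9, the master regulator of chondrocytes, was at 668, 653 and 730 CPM in members, against 772, 755 and 818 CPM in Ucma-low cells, all within 1.5-fold. Of 13 prehypertrophic and hypertrophic genes 0 were higher and 2 lower, Ibsp and Vegfa.
The resting zone list had 0 of 8 higher and 1 lower in all 3 libraries. That 1 was Gdf5, a joint morphogen, at 16.5, 9.09 and 30.9 CPM in PTH, YKL and control members. Ucma-low cells held 45.6, 77.9 and 49.4 CPM of Gdf5. The median log2 ratio of the list was -0.19 in PTH, -0.76 in YKL and -0.30 in control cells, against 0.04, -0.07 and 0.04 over all genes. The 16 genes of the list summed to 439, 542 and 350 CPM in PTH, YKL and control members. In Ucma-low cells they summed to 658, 692 and 460 CPM. Prg4, lubricin of articular surface cells, reached 3.51 CPM in PTH, 3.64 CPM in YKL and 1.53 CPM in control members.

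Against Col10a1-positive chondrocytes, 347 of 7239 genes (4.79%) were at least 1.5-fold higher in the members in all 3 libraries and 497 genes (6.87%) lower. With the PTH and control libraries alone, 628 of 7420 genes were higher (8.46%) and 633 lower (8.53%). Small leucine-rich proteoglycans, which bind collagen fibrils and growth factors, had 7 of 10 measured members higher and 0 lower (Bgn, Fmod, Prelp, Ogn, Aspn, Omd and Epyc). Their median log2 ratio was 1.25 in PTH, 1.17 in YKL and 0.89 in control cells, against 0.02, -0.08 and 0.02 over all genes. Bgn, biglycan, was at 3177 CPM in PTH, 2316 CPM in YKL and 2464 CPM in control members, against 1492, 1031 and 1321 CPM in Col10a1-positive cells. Fmod, fibromodulin, was at 897, 1329 and 1024 CPM in members, against 336, 461 and 510 CPM in Col10a1-positive cells. Every library had its members above its Col10a1-positive cells in both genes, as the call required.

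C1qtnf3, Mest and Slc40a1 were among the 10 genes named as higher than in Col10a1-positive cells. C1qtnf3, the cartilage-secreted CTRP3, was at 3269 CPM in PTH, 1783 CPM in YKL and 4458 CPM in control members, against 316, 373 and 852 CPM in Col10a1-positive cells. Mest was at 435, 347 and 253 CPM in members, against 33.0, 33.1 and 64.6 CPM in Col10a1-positive cells. Slc40a1, the iron exporter ferroportin, was at 58.3, 61.8 and 47.2 CPM in members, against 6.40, 8.06 and 9.31 CPM. For all 3 genes the members were the higher class in each library, which the call required.
Pkdcc, a secreted tyrosine kinase, had log2 ratios of 2.65 in PTH, 1.93 in YKL and 1.99 in control cells, and Tnn, tenascin W, had 3.16, 2.65 and 1.87. Kctd14, the cytokine Il17d, the protease Mmp23 and the guidance cue Sema3d were also among the 10. Stmn1, a tubulin-binding protein of dividing cells, was among them too, but all its YKL UMIs came from 1 cell.

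Hypertrophic genes were lower in the members, in which the rule itself kept Col10a1 low. Of 14 measured genes 0 were higher and 6 lower in all 3 libraries (Ihh, Pth1r, Mmp13, Ibsp, Mef2c and Vegfa). Ihh, the hedgehog ligand of prehypertrophic cells, was at 61.9 CPM in PTH, 54.5 CPM in YKL and 37.1 CPM in control members, against 882, 789 and 628 CPM in Col10a1-positive cells. Pth1r, the receptor of PTH, was at 772, 1270 and 682 CPM in members, against 1824, 2114 and 2017 CPM in Col10a1-positive cells. Mef2c, a transcription factor that drives hypertrophy, was at 336, 483 and 302 CPM in members, against 1369, 1331 and 1250 CPM. Snorc and Hapln1, proteoglycan-associated genes, were lower as well, with Snorc at 5852, 7472 and 6527 CPM in members, against 11537, 12544 and 11675 CPM.
Aldh1a3 had log2 ratios of -7.42, -7.69 and -7.33 in PTH, YKL and control cells. Spon2, Depp1, Irx5, Wnk4, Loxl4, Gmpr and Scube3 were the other lowest genes, with YKL members holding 1 UMI of Spon2, Depp1, Irx5, Wnk4 and Scube3 and Spon2 at 0 UMIs in PTH members.

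Among the members, Ucma varied from 0.101% to 1.18% of UMIs in PTH, from 0.110% to 0.416% in YKL and from 0.101% to 1.39% in control cells. Members with Ucma at 0.3% to 1% (74 PTH and 217 control cells) were set against those at 0.1% to 0.3% (75 PTH and 273 control cells), while the YKL library had 1 cell in the upper bin and was not read. Of 5154 genes 21 (0.407%) were at least 1.5-fold higher in the upper bin in both libraries and 36 (0.698%) lower.
Several genes that set members apart from Ucma-low cells also followed Ucma inside the class. Matn1 was at 78.9 CPM in the upper bin and 35.1 CPM in the lower bin in PTH cells, and at 136 and 34.0 CPM in control cells. R3hdml was at 65.4 and 25.1 CPM in PTH cells, and 52.4 and 20.1 CPM in control cells, and Phyh at 241 and 116 CPM in PTH cells, and 262 and 116 CPM in control cells. Slc40a1, Serpina3n, Lmcd1, Nrk, Plscr2, Mest and Kctd14 were the other 7 genes that led this side.
On the lower side, Cdkn1a was at 189 CPM in the upper bin and 345 CPM in the lower bin in PTH cells, and at 145 and 273 CPM in control cells. Alpl, tissue-nonspecific alkaline phosphatase, was at 275 and 650 CPM in PTH cells, and at 258 and 419 CPM in control cells. Ibsp, bone sialoprotein, was at 59.0 and 4310 CPM in PTH cells, and at 21.7 and 155 CPM in control cells, and in both libraries it is concentrated in few cells. Of 17 hypoxia and glycolysis genes 0 were higher and 3 lower, with the summed list at 6720 and 9476 CPM in PTH cells, and at 11776 and 14593 CPM in control cells.

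**Figure D4:**
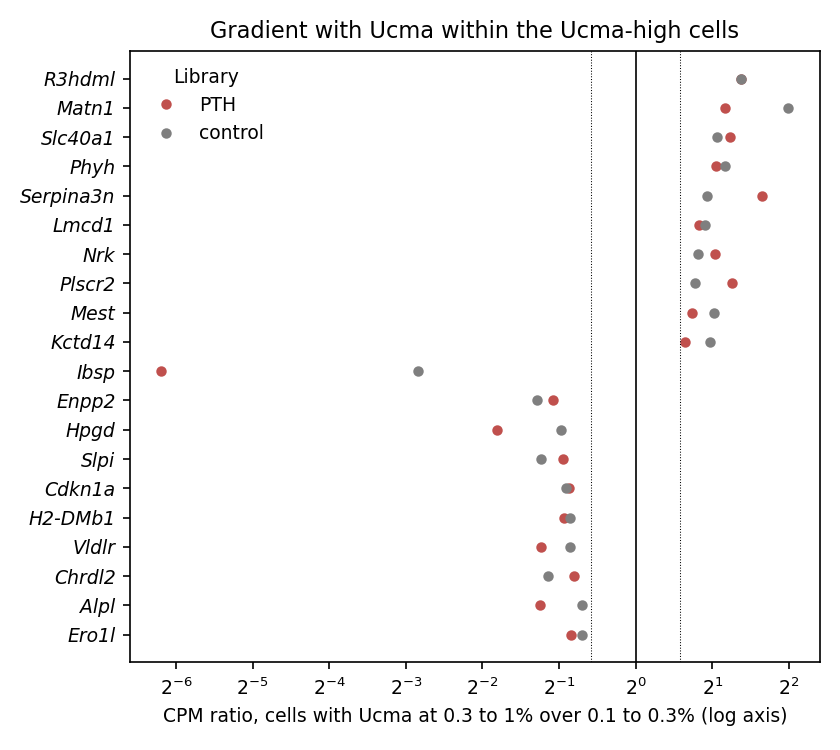
CPM ratio of members with Ucma at 0.3 to 1% of UMIs over members at 0.1 to 0.3% (x, log scale) in the PTH and control libraries, for the 10 genes higher and the 10 lower by the naming rule; dotted lines mark 1.5-fold. Matn1, R3hdml and Phyh lie to the right and Ibsp and Cdkn1a to the left in both libraries.

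PTH members were set against control members. Of 9166 genes with at least 50 UMIs over both sums, 568 (6.20%) were at least 1.5-fold higher in PTH members and 579 (6.32%) lower, and the median log2 ratio was -0.02. A gene at the minimum and at equal level would hold 11.9 UMIs in the PTH sum. In Ucma-low cells the same comparison gave 577 higher (6.19%) and 577 lower (6.19%) of 9320 genes.

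Genes of glycolysis and low oxygen were lower in PTH members. Of 19 measured, 13 were at least 1.5-fold lower and 0 higher, with a median log2 ratio of -0.64 against -0.02 over all genes. In Ucma-low cells 3 of 19 were lower and the median was -0.33. Ldha, lactate dehydrogenase, was at 947 CPM in PTH members and 1863 CPM in control members (0.509-fold, 0.488 to 0.530). Tpi1, triose phosphate isomerase, was at 549 CPM in PTH and 1069 CPM in control members (0.513-fold, 0.486 to 0.541), and Gapdh at 2365 CPM in PTH and 3902 CPM in control members (0.606-fold, 0.590 to 0.622). Eno1, Pkm and Pgk1, all glycolytic enzymes, were at 0.663-, 0.664- and 0.663-fold.
Cell by cell, the summed list had a median of 6592 CPM in PTH members (quartiles 3250 and 13748) and at 12693 CPM in control members (quartiles 7923 and 18116). When each cell counted equally, 7 genes were lower and 1 higher, and when members with 0.5% or more of their UMIs in markers of other cells were left out, 13 were lower and 1 higher. Higd1a and Ndufa4l2, mitochondrial proteins of low oxygen, and Slc16a3, a lactate exporter, were among the 10 lowest genes by rule. Higd1a was at 846 CPM in PTH and 2197 CPM in control members (0.385-fold, 0.369 to 0.402).

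Immediate-early genes that cAMP signalling induces were higher in part. Of 19 measured cAMP, CREB and CRTC response genes 6 were higher in PTH members and 1 (Ptgs2) lower, with a median log2 ratio of 0.30. In Ucma-low cells 2 of 19 were higher (Nr4a3 and Pde4d) and 3 lower (Crem, Ptgs2 and Tnfsf11). Fos was at 1524 CPM in PTH and 830 CPM in control members (1.84-fold, 1.77 to 1.91), Fosb at 345 CPM in PTH and 191 CPM in control members (1.81-fold, 1.67 to 1.96) and Egr1 at 506 CPM in PTH and 311 CPM in control members (1.63-fold, 1.53 to 1.73). All 3 encode transcription factors. Junb (1.30-fold), the phosphatase Dusp1 (1.23-fold) and the nuclear receptor Nr4a2 (1.09-fold, 0.934 to 1.26) did not reach 1.5-fold.
The difference was larger in the cells with more Ucma, a split chosen after seeing the data. The summed list was at 3913 CPM in PTH and 1959 CPM in control members with Ucma at 0.3% to 1%, but at 3015 CPM in PTH and 2504 CPM in control members at 0.1% to 0.3%. Within that lower bin 0 of 13 genes were higher and 2 lower, where over all 7593 genes 480 (6.32%) were higher and 619 (8.15%) lower. Of 15 heat shock and dissociation genes, which tissue digestion can induce, 2 were higher (Zfp36 and Socs3) and 0 lower, with a median of 0.11.

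Bone matrix genes and part of the insulin-like growth factor genes were higher in PTH members. Ibsp was at 2142 CPM in PTH and 97.1 CPM in control members (22.1-fold, 20.6 to 23.7), but 1 cell held 47.3% of the PTH UMIs and 1 cell 31.4% of the control UMIs, and PTH endothelial cells carried 344 CPM against 23.8 CPM in control endothelial cells. Spp1, osteopontin, was at 564 CPM in PTH and 262 CPM in control members (2.15-fold, 2.02 to 2.29), with 782 CPM in PTH and 28.2 CPM in control endothelial cells. The part of free RNA in both genes was not tested. In Ucma-low cells Ibsp was at 3716 CPM in PTH and 512 CPM in control cells, and Spp1 at 1195 CPM in PTH and 377 CPM in control cells.
Of the other hypertrophic genes, Alpl, Panx3 and Pth1r stayed within 1.5-fold. Alpl was at 456 CPM in PTH and 347 CPM in control members (1.31-fold, 1.23 to 1.40), Panx3, a channel protein, at 235 CPM in PTH and 257 CPM in control members, and Pth1r at 772 CPM in PTH and 682 CPM in control members. Of the 14 measured, 3 were higher (Ihh, Ibsp and Spp1) and 2 lower (Mmp13 and Vegfa). Of 9 insulin-like growth factor genes 4 were higher and 0 lower (Igf2r, Igfbp3, Igfbp5 and Igfbp6), with a median log2 ratio of 0.56. Igfbp7, the most abundant, was at 4057 CPM in PTH and 3020 CPM in control members (1.34-fold, 1.31 to 1.37).

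Cartilage collagens stayed within 1.5-fold between PTH and control members, while other matrix genes differed in both directions. Of 12 cartilage collagens and partners 0 were called, with Col11a1 at 9880 CPM in PTH and 8715 CPM in control members (1.13-fold, 1.12 to 1.15) and Col9a3 at 6288 CPM in PTH and 7925 CPM in control members (0.793-fold, 0.781 to 0.807). Acan, aggrecan, was at 4956 CPM in PTH and 4718 CPM in control members. Of 19 non-collagen matrix genes 4 were higher (Matn4, Mgp, Cilp2 and Fbln7) and 2 lower (Mia and Vit), and of 10 small leucine-rich proteoglycans 2 were higher (Omd and Chad) and 1 lower. That 1 was Prelp, at 334 CPM in PTH and 545 CPM in control members (0.612-fold, 0.570 to 0.656). Matn4, another matrilin, was higher, at 554 CPM in PTH and 255 CPM in control members (2.18-fold, 2.04 to 2.32), as was Mgp (1.55-fold, 1.53 to 1.58). Omd, osteomodulin, was at 1021 CPM in PTH and 549 CPM in control members (1.86-fold, 1.78 to 1.95), and Chad, the cell-binding protein chondroadherin, at 1013 CPM in PTH and 511 CPM in control members (1.98-fold, 1.89 to 2.08). Mia was lower, at 1028 CPM in PTH and 1544 CPM in control members (0.666-fold, 0.640 to 0.693).
Further genes named by rule on the higher side were Ccn2, connective tissue growth factor, at 495 CPM in PTH and 211 CPM in control members (2.35-fold, 2.19 to 2.52), Serpine2, a protease inhibitor (2.45-fold), Pltp, a lipid transfer protein (2.52-fold), Lbhd2 (2.51-fold), and the histone genes Hist1h2ap and Hist1h1b, whose counts are uncertain because histone genes have near-identical relatives. Dhx58os (3.11-fold) is an antisense gene, and its counts cannot be told apart from its partner's without the strand setting. On the lower side, Tgfbi, a TGF-beta-induced matrix protein, was at 67.8 CPM in PTH and 214 CPM in control members (0.317-fold, 0.272 to 0.367). Meg3 and Rian, noncoding RNAs of 1 imprinted locus, were at 0.435- and 0.394-fold, Chrdl2, a BMP antagonist, at 0.400-fold, and the transglutaminase F13a1 at 0.258-fold. Fabp4, a fatty acid carrier, was at 0.154-fold, but 1 cell held 40.5% of its control UMIs.

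**Figure D5:**
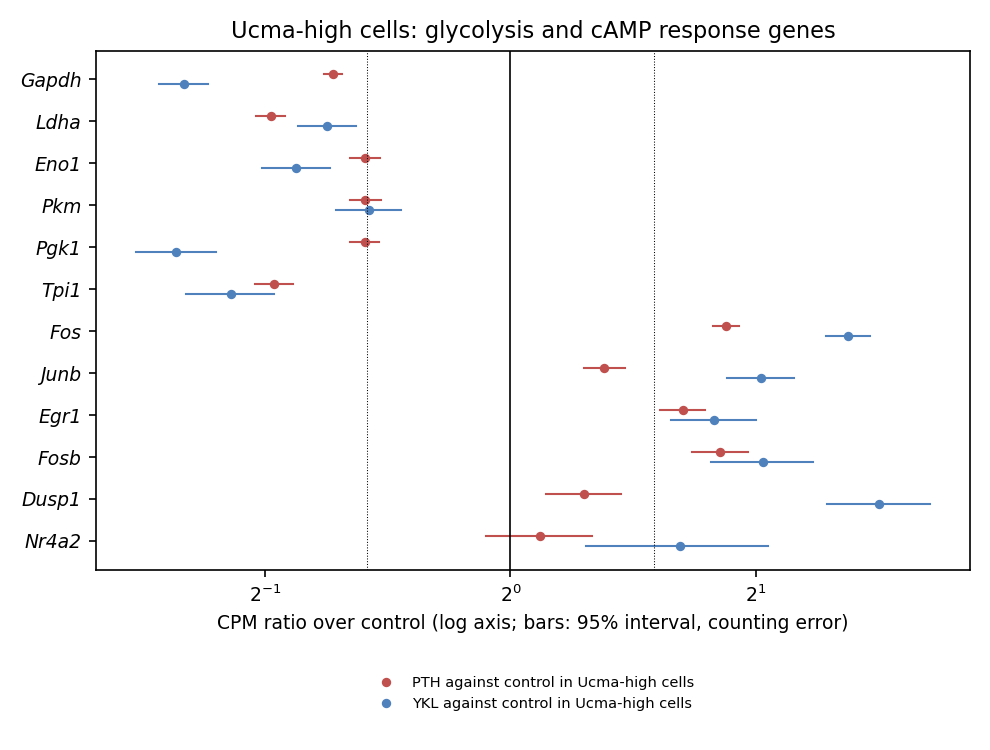
CPM ratio over control members (x, log scale) in PTH and YKL members, for the 6 most abundant genes of the hypoxia and glycolysis list (Gapdh to Tpi1) and of the cAMP response list (Fos to Nr4a2); bars are 95% counting intervals and dotted lines mark 1.5-fold. Both treatments share the control members. The glycolysis genes lie left of 1 and the response genes right of it for both treatments.

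YKL members were few, 14 cells, and a gene at the minimum and at equal level would hold 2.83 UMIs in their sum, so few UMIs stand behind many of the calls. Of 8618 genes 980 (11.4%) were at least 1.5-fold higher than in control members and 1943 (22.5%) lower, and the median log2 ratio was -0.12. In the 128 YKL Ucma-low cells the comparison gave 757 higher (7.99%) and 766 lower (8.09%) of 9473 genes. PTH and YKL members are compared with the same control members, so their differences from it are not independent. YKL members also had lower Ucma than control members. The comparison was therefore repeated on members with Ucma at 0.1% to 0.3%, chosen after seeing the data, where 749 of 7152 genes (10.5%) were higher and 1447 (20.2%) lower in YKL members. There the salt-inducible kinase list had 5 of 12 higher and 0 lower, the hypertrophic list 7 of 14 higher and 3 lower, the hypoxia and glycolysis list 1 of 18 higher and 14 lower, and the insulin-like growth factor list 0 of 8 higher and 5 lower.

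The cAMP, CREB and CRTC response list was higher in YKL members, with 14 of 18 measured genes higher, 1 (Ptgs2) lower and a median log2 ratio of 1.02 against -0.12 over all genes. In members with Ucma at 0.1% to 0.3% it had 10 of 13 higher and 1 lower, and in Ucma-low cells 9 of 19 higher and 2 lower. Fos was at 2152 CPM in YKL and 830 CPM in control members (2.59-fold, 2.44 to 2.76). Dusp1 was at 400 CPM in YKL and 141 CPM in control members (2.83-fold, 2.44 to 3.27), Junb at 885 CPM in YKL and 436 CPM in control members (2.03-fold, 1.84 to 2.23) and Nr4a2 at 124 CPM in YKL and 76.7 CPM in control members (1.61-fold, 1.24 to 2.07). With every cell thinned to 2000 UMIs, which left few YKL UMIs of this gene, the log2 ratio of Nr4a2 was -0.26. The summed list had a median cell at 4646 CPM in YKL members (quartiles 1304 and 7055) and at 1287 CPM in control members (quartiles 518 and 3030). Of 15 heat shock and dissociation genes 3 were higher (Btg2, Zfp36 and Socs3) and 3 lower in YKL members, with a median of 0.01. The part of tissue digestion in the response list was not tested.
Of 13 genes of the salt-inducible kinase pathway 8 were higher and 0 lower in YKL members, with a median of 0.65, and in Ucma-low cells 4 of 13 were higher. Mef2a, a MEF2 factor that class IIa histone deacetylases hold back, was at 92.7 CPM in YKL and 43.5 CPM in control members (2.13-fold, 1.56 to 2.86), and Mef2d at 63.6 CPM in YKL and 41.0 CPM in control members (1.55-fold, 1.07 to 2.20). Gnas, the stimulatory G protein of the receptor, was at 2063 CPM in YKL and 1812 CPM in control members, within 1.5-fold.

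Hypertrophy and mineralization genes were higher in YKL members although Col10a1 was held low by the rule. Of 14 prehypertrophic and hypertrophic genes 8 were higher and 3 lower (Mmp13, Fgfr3 and Vegfa), with a median log2 ratio of 0.79. Alpl was at 1289 CPM in YKL and 347 CPM in control members (3.71-fold, 3.42 to 4.03), Panx3 at 992 CPM in YKL and 257 CPM in control members (3.86-fold, 3.51 to 4.24), Pth1r at 1270 CPM in YKL and 682 CPM in control members (1.86-fold, 1.72 to 2.01) and Mef2c at 483 CPM in YKL and 302 CPM in control members (1.60-fold, 1.41 to 1.82). All 14 YKL members held UMIs of each of these 4 genes, and no cell held more than 19.0% of a gene's UMIs.
Ibsp was at 329 CPM in YKL and 97.1 CPM in control members (3.39-fold, 2.87 to 3.98), with 41.4% of the YKL UMIs in 1 cell. Spp1 was at 1390 CPM in YKL and 262 CPM in control members, but 1 cell held 90.2% of the YKL UMIs, and at a mitochondrial maximum of 5% its log2 ratio was -0.43. In Ucma-low cells 8 of 14 were higher and 1 lower, with Alpl at 1226 CPM in YKL and 596 CPM in control cells and Panx3 at 703 CPM in YKL and 200 CPM in control cells. Col10a1, under its limit by the rule, was at 127 CPM in YKL and 65.0 CPM in control members.

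Glycolysis genes were lower in YKL members too. Of 19 measured, 13 were lower and 1 (Hk2) higher, with a median log2 ratio of -0.82, and in Ucma-low cells 4 were lower and 1 higher. Gapdh was at 1550 CPM in YKL and 3902 CPM in control members (0.397-fold, 0.371 to 0.425), Pgk1 at 578 CPM in YKL and 1484 CPM in control members (0.389-fold, 0.347 to 0.435) and Tpi1 at 485 CPM in YKL and 1069 CPM in control members (0.454-fold, 0.400 to 0.513). Hif1a was at 249 CPM in YKL and 435 CPM in control members (0.572-fold, 0.479 to 0.678). The median cell of the summed list was at 4504 CPM in YKL and 12693 CPM in control members.
Of 9 insulin-like growth factor genes 1 was higher (Igfbp6) and 6 were lower in YKL members. Igf2 was at 36.4 CPM in YKL and 131 CPM in control members (0.278-fold, 0.169 to 0.431) on 20 UMIs from 3 YKL cells, and Igfbp7 at 1952 CPM in YKL and 3020 CPM in control members (0.646-fold, 0.608 to 0.687). Of the other lower genes, Igf1 rests on 1 UMI in YKL members and Igfbp3 on 0 UMIs, held at the floor. With no tendon-gene UMI allowed the log2 ratio of Igfbp4 was 0.026.

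More matrix genes were called higher than lower in YKL members, where 11.4% of all genes were higher and 22.5% lower. Comp was at 13301 CPM in YKL and 7543 CPM in control members (1.76-fold, 1.72 to 1.81), Chad at 1552 CPM in YKL and 511 CPM in control members (3.04-fold, 2.82 to 3.27), Lum, lumican, at 1067 CPM in YKL and 645 CPM in control members (1.65-fold, 1.52 to 1.80) and Col27a1, a fibrillar collagen of cartilage, at 1932 CPM in YKL and 887 CPM in control members (2.18-fold, 2.04 to 2.32). Of 12 cartilage collagens and partners 4 were higher and 1 lower, and of 19 non-collagen matrix genes 4 were higher and 2 lower (Matn1 and Vwa1). Of 10 small leucine-rich proteoglycans 2 were higher (Lum and Chad) and 2 lower, with Ogn, osteoglycin, at 58.2 CPM in YKL and 157 CPM in control members (0.372-fold, 0.253 to 0.527) and Aspn, asporin, at 69.1 CPM in YKL and 233 CPM in control members (0.297-fold, 0.209 to 0.409). Acan was at 4024 CPM in YKL and 4718 CPM in control members (0.853-fold, 0.817 to 0.890) and Sox9 at 653 CPM in YKL and 730 CPM in control members (0.894-fold, 0.802 to 0.994). Mt1 was at 353 CPM in YKL and 1663 CPM in control members (0.212-fold, 0.183 to 0.244), and Mt2 at 41.8 CPM in YKL and 162 CPM in control members (0.258-fold, 0.163 to 0.389).
Of the 10 genes named by rule as higher, Slc16a4, a transporter (12.6-fold, 8.07 to 19.7), Hes1, a Notch target (9.35-fold, 6.48 to 13.4), Fxyd3, an ion pump regulator (7.25-fold, 6.08 to 8.62), Pltp (6.08-fold, 5.16 to 7.15), Car8, a carbonic anhydrase relative (5.75-fold, 4.65 to 7.06) and F5, coagulation factor V (6.41-fold, 4.27 to 9.46) had UMIs in 7 to 13 of the 14 cells, though 1 cell held 48.0% of those of Hes1. Dqx1 and Ctla2a had all their YKL UMIs in 1 cell, and Fabp4 95.9% of them, and without the 1 cell rich in endothelial UMIs the log2 ratios were -1.65 for Fabp4 and -0.18 for Ctla2a. Of the 10 named as lower, H19, an imprinted noncoding RNA, was at 278 CPM in YKL and 1413 CPM in control members (0.197-fold, 0.167 to 0.231), Meg3 at 247 CPM in YKL and 914 CPM in control members (0.271-fold, 0.227 to 0.321) and Eif4ebp1, a translation repressor, at 70.9 CPM in YKL and 357 CPM in control members (0.199-fold, 0.141 to 0.272). Ltbp4, Fbln2, Rian, Plscr2, Ifitm10 and Fbn1 held 3 to 7 UMIs each in YKL members. When cells were thinned to 2000 UMIs their log2 ratios turned positive, but these values are set by the floor of 3 UMIs. They do not show a higher level in YKL members.

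Few members held several UMIs of division genes. After each cell was thinned to 2000 UMIs, 4 of 150 PTH members (2.67%, 0.731% to 6.69%), 0 of 14 YKL members (0% to 23.2%) and 16 of 491 control members (3.26%, 1.87% to 5.24%) held at least 3 UMIs of G2 and M phase genes. In Ucma-low cells the counts were 3 of 180 PTH cells, 0 of 126 YKL cells and 4 of 595 control cells (0.672%, 0.183% to 1.71%). Top2a, a topoisomerase of dividing cells, was at 66.4 CPM in PTH, 7.27 CPM in YKL and 42.0 CPM in control members, and Mki67, the proliferation antigen, had 98 UMIs in PTH, 0 UMIs in YKL and 183 UMIs in control members. In PTH members with Ucma at 0.1% to 0.3% the log2 ratio of Top2a against control members was -0.22. The list had 3 of 18 genes higher and 4 lower in PTH members than in control members, and 11 of 12 higher and 0 lower in PTH Ucma-low cells than in control Ucma-low cells. In those Ucma-low cells 43 of 182 PTH and 182 of 607 control cells held a UMI of the list, and 1 PTH cell held 46.3% of its 830 PTH UMIs. In YKL members 13 of 15 were lower, but 11 of the 15 had 0 UMIs there and the whole list only 10 UMIs.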

How the data were processed

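Droplet single-cell RNA libraries (1 per group) of day 7 callus were analysed from the deposited matrices of raw UMI counts. Per the file headers these came from Cell Ranger (4.0.0), and the submitters' processing notes add Seurat and mm10. Genes filled 32285 rows, and 78 rows with a repeated symbol could be neither named nor counted in a list.

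UMIs were summed over the members of a library and scaled to CPM. Ratios of sums carry exact conditional binomial intervals, shares exact Clopper-Pearson intervals, both at 95%. A gene with 0 UMIs in 1 sum was held at a floor of 3 UMIs. A gene was called at 1.5-fold with at least 50 UMIs over both sums, and for cell classes in all 3 libraries. Named genes are the 10 per direction with at least 50 CPM whose interval bound (for classes, smallest ratio over the libraries) is farthest from 1. Genes of the rule, mitochondrial, ribosomal and predicted genes and markers of other cells were left out. Up to 6 members per list, highest in CPM, were named from 36 lists of 476 symbols, 4 without a row of their own. Lists share genes. The members and lists were chosen with earlier results of these data known. Scrublet (scanpy 1.11.5) served as an alternative only. The ratio and interval code was tested on simulated data. Sums of 1 library are not replicates, so p-values were not computed. Alternatives are given in the closing section.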

Additional observations from a re-analysis of the deposited data

Results flagged for a closer look

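In 2 genes the YKL against control difference pointed in opposite directions in Ucma-high and Ucma-low cells, and the difference between the directions was not tested. Fabp4, a fatty acid carrier, had a log2 ratio of 2.82 in Ucma-high cells and -2.13 in Ucma-low cells. Ctla2a had 2.96 in Ucma-high cells and -2.51 in Ucma-low cells. Both positive values come from the YKL member that held 96 endothelial marker UMIs, and without that cell the ratios in Ucma-high cells were -1.65 for Fabp4 and -0.18 for Ctla2a.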

How the results depend on the processing

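No paired analysis was possible because each group has 1 library. With a Ucma minimum of 0.05% the share of members was 28.3% in PTH, 7.85% in YKL and 37.5% in control chondrocytes, and with 0.2% it was 16.2%, 0.785% and 21.2%. With no tendon gene UMI allowed the share was 6.70% in PTH and 18.7% in control chondrocytes, 966 genes were lower in PTH members and 215 genes higher than in Col10a1-positive cells. Cells thinned to 2000 UMIs gave, for PTH against control, 175 genes higher and 333 lower, for YKL against control 561 and 680, against Ucma-low cells 16 and 39, and against Col10a1-positive cells 57 and 115. A minimum of 20 UMIs gave 1029 higher and 967 lower for PTH, and 1865 higher for YKL. A minimum of 200 UMIs gave 152 and 200 for PTH, 327 and 793 for YKL, 26 and 92 against Ucma-low cells, and 145 and 260 against Col10a1-positive cells. With the PTH and control libraries only, 203 genes were higher than in Ucma-low cells and 628 higher than in Col10a1-positive cells. Fewer genes are tested under the higher minimum and after thinning. The YKL counts of 1865 and 561 higher genes cannot be read as genes with a higher level in YKL members. At the minimum of 20 UMIs and after thinning, the floor in the small YKL sum can lie above the control level. A gene with no UMI in YKL members can then be called higher there. How many such genes these counts hold was not tested, and neither was the cause of the other shifts.

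Directions turned (log2 ratios) for Spp1 in YKL members at a mitochondrial maximum of 5% (-0.43); for Ube2c in PTH members at a Ucma minimum of 0.2% (0.16); without tendon UMIs for Mki67 in PTH (-0.33) and Igfbp4 in YKL members (0.026). After thinning they turned in YKL members for Nr4a2 (-0.26), Fbn1 (0.86), Fbln2 (0.29), Ltbp4 (0.43), Ifitm10 (0.26), Plscr2 (0.53) and Rian (0.073). For all of these but Nr4a2 the thinned value is set by the floor of 3 UMIs, and that of Nr4a2 rests on few YKL UMIs. In alternatives chosen after seeing the data, Wif1 (-1.16) and Top2a (-0.22) turned in PTH members with Ucma at 0.1% to 0.3%, and Fabp4 (-1.65) and Ctla2a (-0.18) without 1 YKL cell. A Ucma minimum of 0.2% left 3 YKL cells and gave no YKL ratio, and weighting bins of Ucma equally could not be run for YKL. The YKL values rest on 14 cells.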
